A study of Mus musculus with 6 samples.

Results

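The nutrient transporters described here are the 73 genes, of 49315 in the deposited table, whose symbols place them in the solute carrier families Slc1, Slc2, Slc3, Slc6, Slc7, Slc36, Slc38 and Slc43. Symbols with a further letter or suffix, 7 in all, fall outside that rule, among them Slc6a20a and Slc6a20b. RNA was sequenced from fully grown germinal vesicle (GV) oocytes, which are arrested in meiosis with the nucleus intact. Of the 6 libraries, 3 came from Control mice and 3 from mice with an oocyte-specific conditional knockout of Rpa1 (OcKO). Each library is 1 mouse of 4 to 5 weeks, primed with PMSG, and holds around 20 pooled oocytes stripped of cumulus cells. Neither the Cre driver nor the genotype of the Control mice is given in the sources used here. The study asks what replication protein A1, which binds single-stranded DNA, does for DNA repair in oogenesis.

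Solute carriers move small molecules across membranes. Slc2 genes encode the facilitative GLUT carriers of glucose and related sugars. Slc1, Slc6, Slc7, Slc36, Slc38 and Slc43 genes encode mostly amino acid carriers, some driven by sodium and some exchanging one amino acid for another, and Slc6 also holds the carriers of taurine, creatine and monoamine transmitters. The Slc3 genes encode heavy chains, without which most Slc7 light chains do not reach the cell surface. A growing oocyte uses glucose poorly and depends on its cumulus cells, which take up sugars and several amino acids and pass products through gap junctions. Not every member works at the plasma membrane: the products of Slc38a7, Slc38a9 and Slc36a1 are known from lysosomes, and Slc43a3 encodes a nucleobase carrier.

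Libraries held 36280148 to 44575222 counts, and 1 count is worth 0.0224 to 0.0276 CPM (the share of a library's counts, scaled to the same total). More genes had at least 1 count in the OcKO libraries (19915 to 22393) than in the Control libraries (18330 to 19351). CPM of Rpa1, transporters and partner genes was also scaled by TMM, which evens out differences in composition, and that of markers and overlapping genes was not. Rpa1 stood at 155, 155 and 139.8 CPM in Control, against 7.75, 4.13 and 6.83 CPM in OcKO, so the labels and the targeted gene match. Oocyte markers (14 genes) summed to 33640 to 56664 CPM in every library. Granulosa and cumulus markers (15 genes) summed to 60.8 to 110.0 CPM in Control and 97.9 to 119.8 CPM in OcKO. Of these 15, Nr5a2 was the most abundant (11.9 to 43.7 CPM over the 6 libraries), 4 stayed under 1 CPM in every library and Ptx3 had 0 counts. Theca and stroma markers summed to 2.28 to 8.93 CPM, blood and immune markers to 1.11 to 12.1 CPM, and endothelial markers to 102 to 247 CPM, led by Pecam1 (67.5 to 128 CPM). In pooled oocytes, fewer oocytes with a transcript and less transcript per oocyte cannot be told apart.

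The GV oocyte held RNA of 24 of the 73 transporters, which reached at least 1 TPM (a share of the library corrected for gene length) in all 3 Control libraries and are called held here. A further 38 were traces, with counts somewhere but not at that level, and 11 had 0 counts in all 6 libraries. Of the held genes, 14 stood at 10 TPM or more in every Control library. The summed level of all 73 was 999.7, 926 and 1008 TPM in Control and 1105, 978 and 1033 TPM in OcKO. The 6 most abundant genes made up 65.8 ± 4.45% of it in Control and 61.4 ± 1.06% in OcKO (SD, n = 3). The held genes just inside the limit were Slc7a7, at 1.2 TPM in its lowest Control library, and Slc2a5, at 1.37 TPM. Just outside lay Slc1a1, at 0.756 TPM in its lowest, and Slc36a1, at 0.597 TPM.

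**Figure D1:**
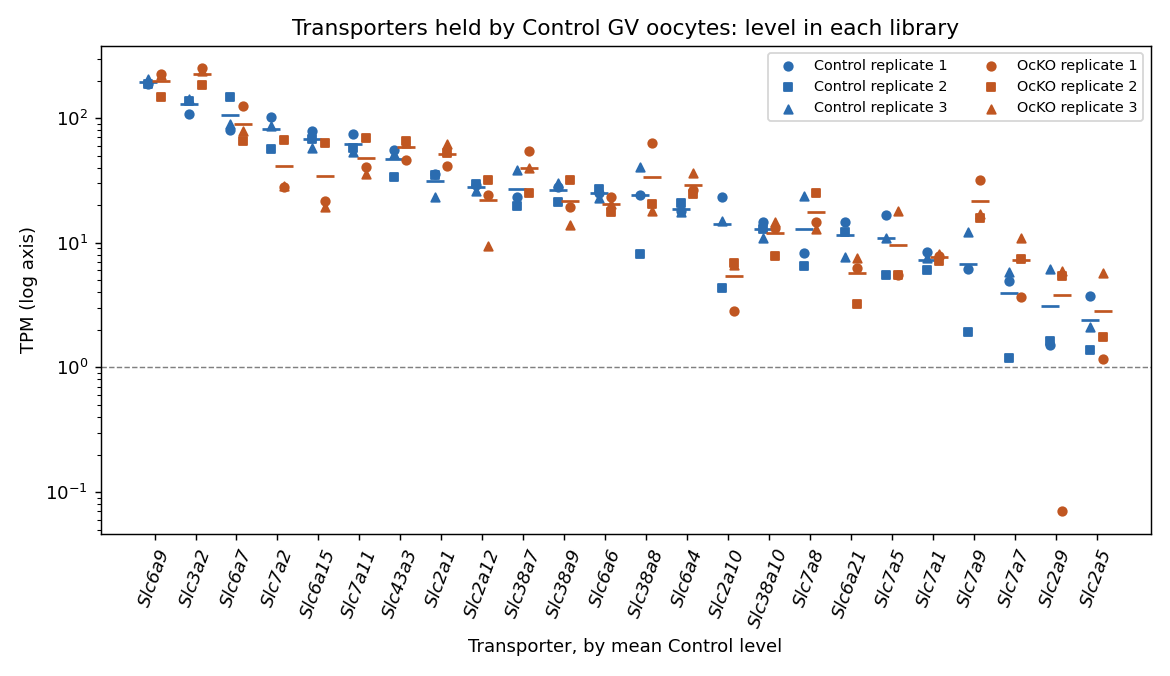
Level of the 24 held transporters in each library, in TPM on a log axis, with Control in blue and OcKO in orange. Marker shapes give the replicate, short bars the group means and the dashed line 1 TPM. Slc6a9 leads in Control at 188 to 206 TPM, and Slc2a9 in OcKO replicate 1 falls under the line at 0.0699 TPM.

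The Slc6 family supplied the largest part of this RNA, 43.8% of the summed transporter TPM in Control, led by Slc6a9 and Slc6a7. Slc7 supplied 19%, Slc3 13.4%, Slc38 9.67% and Slc2, the glucose carriers, 8.4%. Slc43 added 4.84%. The glutamate and neutral amino acid carriers of Slc1 and the proton-coupled carriers of Slc36 held no gene above the limit in all Control libraries and added 0.371% and 0.441%.

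**Figure D2:**
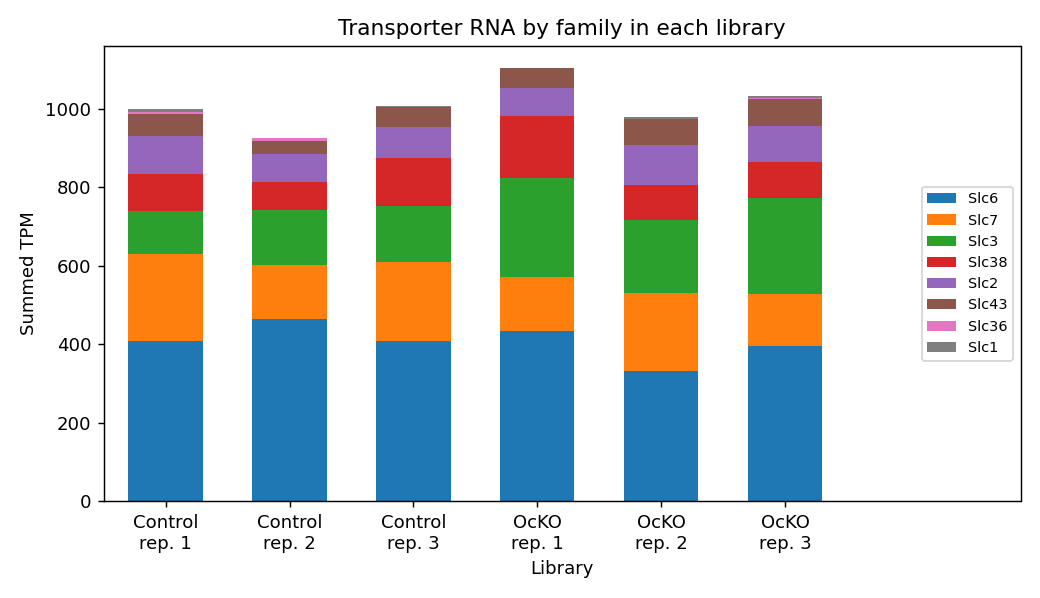
Summed TPM of the 8 families in each library, stacked from Slc6 at the base. The Slc3 segment runs from 109 to 143 TPM in Control and from 186 to 252 TPM in OcKO, and the Slc1 and Slc36 segments are barely visible.

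The most abundant transporter was Slc6a9 (ENSMUSG00000028542, chromosome 4, 117834506 to 117875198, plus strand, GRCm38), which encodes the glycine carrier GLYT1. Mouse eggs and early embryos are known to use it to take up glycine as an osmolyte. Uptake by GV oocytes was not measured here. Its Control libraries stood at 188, 189 and 206 TPM, and no other member reached its lowest value in Control. It ranked 882 of all genes in the table by mean Control TPM. In OcKO it stood at 224, 147 and 223 TPM, on both sides of Control.

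Slc3a2 came second (chromosome 19, 8706882 to 8723369, minus strand), at 108, 137 and 143 TPM in Control. It encodes the heavy chain 4F2hc, also called CD98. Slc6a7, which encodes a proline carrier best known from brain, followed at 80.8, 147 and 89.7 TPM. Slc7a2, the cationic amino acid carrier that takes up arginine and lysine, stood at 103, 56.7 and 86.1 TPM. Slc6a15, a carrier of branched-chain amino acids and proline, stood at 79.3, 68.6 and 57.7 TPM. Slc7a11, the cystine and glutamate exchanger xCT, stood at 74.3, 58.1 and 53.2 TPM. From Slc3a2 down to Slc6a6 in twelfth place, the Control ranges of each gene and the next overlapped, so neighbours in that order did not differ beyond their spread.

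Slc43a3, the nucleobase carrier, stood at 55.4, 33.4 and 51.4 TPM in Control. Slc38a7, the lysosomal glutamine exporter, and Slc38a9, the lysosomal arginine sensor that signals to mTORC1, had mean levels of 26.9 ± 9.75 and 26.4 ± 4.64 TPM (SD, n = 3). Slc6a6, the taurine carrier, stood at 25.1 ± 2.1 TPM. Among held genes named after their values were seen, Slc38a8 was uneven, at 24.2, 8.11 and 40.5 TPM, while Slc6a4, the serotonin carrier, was even, at 18, 20.7 and 17.8 TPM. Also held were Slc38a10, Slc7a8 and Slc7a1, with Control means of 12.9, 12.9 and 7.28 TPM.

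The glucose carriers were led by Slc2a1 (GLUT1), the widespread basal carrier, at 35.4, 34.8 and 23.3 TPM in Control. Slc2a12 (GLUT12) stood beside it at 28.9, 29.7 and 26 TPM. Its exons overlap those of Tbpl1 on the opposite strand, which was at 6.801 to 14.738 CPM over the 6 libraries, and libraries of this kind do not mark the strand. Slc2a10 (GLUT10) was held but uneven, at 23.3, 4.37 and 14.9 TPM. Slc2a9, a urate carrier, and Slc2a5, a fructose carrier, were held at means of 3.11 and 2.39 TPM. Slc2a3 (GLUT3), the high-affinity carrier of neurons and of the blastocyst, had 5 counts in each of 2 Control libraries and 0 in the other, and stood at 0.056, 0.0479 and 0 TPM. Slc2a4 (GLUT4), the insulin-regulated carrier, had 0 Control counts and 1 count in OcKO replicate 2. Slc2a8, a largely intracellular carrier, stood at 2.96, 0.0216 and 5.64 TPM.

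Several carriers that are common elsewhere were traces here, uneven between mice or near 0. Slc38a2 and Slc38a1, the sodium-coupled carriers of small neutral amino acids found in many cells, stood at 2.94, 0.06 and 0.672 TPM and at 1.09, 0.0496 and 0.039 TPM in Control. Slc1a5, the glutamine carrier ASCT2, stood at 3.19, 0.15 and 0.0588 TPM. Slc1a3, an astrocyte glutamate carrier, had 1 count in a single Control library. Slc36a4 stayed at or under 0.025 TPM and Slc43a2 (LAT4) at or under 0.505 TPM in Control. Slc38a3, which in follicles is known as a carrier of cumulus cells, had 0 counts in all 3 Control libraries. In OcKO it stood at 2.83, 0 and 0.0735 TPM, so its signal came mostly from 1 library. The summed granulosa and cumulus markers were 118, 97.9 and 119.8 CPM in those libraries, and their part in it was not tested.

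The 11 genes with 0 counts anywhere were Slc1a6, Slc1a7, Slc2a2, Slc2a7, Slc6a2, Slc6a17, Slc7a10, Slc7a12, Slc7a13, Slc36a2 and Slc36a3. At this depth 0 counts allow up to 0.0673 to 0.0827 CPM in a library (3 counts, counting error only). Some sat beside a gene with counts. Slc2a7 lies 4802 bases from Slc2a5, and Slc7a10 lies 247681 bases from Slc7a9, which was held at 6.77 ± 5.15 TPM (SD, n = 3). Slc36a2 lies between Slc36a3 and Slc36a1, a trace that stood at 5.68, 6.4 and 0.597 TPM. Slc43a1, at a mean of 0.657 TPM, lies 72984 bases from Slc43a3. Other neighbours fell in the same class: Slc7a7 and Slc7a8 were both held, and Slc38a1, Slc38a2 and Slc38a4 were all traces.

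Low members were patchy from mouse to mouse. Of the traces, 14 reached 1 TPM in some but not all Control libraries, and 7 of these had 0 counts in another Control library. Over all genes of the table the same held for 2741 of 5147 genes (53.3%, against 50% of the members). Slc38a5 stood at 0, 7.37 and 0 TPM in Control, and Slc6a3 at 0, 0 and 3.24 TPM. Slc3a1 stood at 0.562, 3.88 and 0 TPM, and 608 bases of its exons overlap Prepl on the opposite strand, which was at 77.971 to 139.786 CPM.

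No transporter was called between the groups. edgeR's quasi-likelihood test called 0 of the 42 tested members at a Benjamini-Hochberg adjusted p under 0.05, against 23 of all 16060 genes tested (0.143%). DESeq2 called 0 of 42, against 4.66% of all genes, and limma voom 0 of 42, against 0.00623%. For 1 of the 42, Slc7a6, DESeq2 gave no p. At an unadjusted p under 0.05, edgeR gave 1 member higher in OcKO (5.93% of all genes) and 2 lower (5.21% of all genes), together 7.14% against 11.1%. DESeq2 gave 2 higher and 4 lower at that level, 14.3% of members against 14.3% of all genes. limma voom gave 4 and 3, 16.7% against 13.7%. The Control and OcKO libraries did not overlap for 7 of 42 members, 16.7% against 19.4% of all genes. OcKO was higher in 5 of the 7 (10.7% of all genes) and lower in 2 (8.67% of all genes). Among the 5 was Slc6a13, a trace. Over the 42 these shares lie near those of all genes. Of the 42, 24 were held and 18 were traces. Held members at an unadjusted p under 0.05 were 12.5% by edgeR, 25% by DESeq2 and 20.8% by limma voom. Libraries did not overlap for 25% of held members, with 4 higher and 2 lower in OcKO. Held members were chosen by their Control level, so these shares are not like those of all genes. Traces pass the filter on low counts through whichever group is higher, so their direction was not read.

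The tested members, traces included, had a median log2 fold change (OcKO over Control) of 0.14, and all tested genes 0.01. Held members had a median of -0.09, with 11 positive and 13 negative values, but holding was defined on Control libraries. Scaled by library size and not by TMM, these were 0.08, 13 and 11, and the median of all genes moved to 0.18. Of levels in OcKO, 23 of the 24 held genes also reached 1 TPM in all 3 OcKO libraries. The exception was Slc2a9, at 0.0699, 5.41 and 5.98 TPM. Another 3 genes reached it in all OcKO but not all Control libraries: Slc7a6, Slc43a1 and Slc6a13, with edgeR adjusted p values of 0.9151, 0.8700 and 0.8015.

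**Figure D3:**
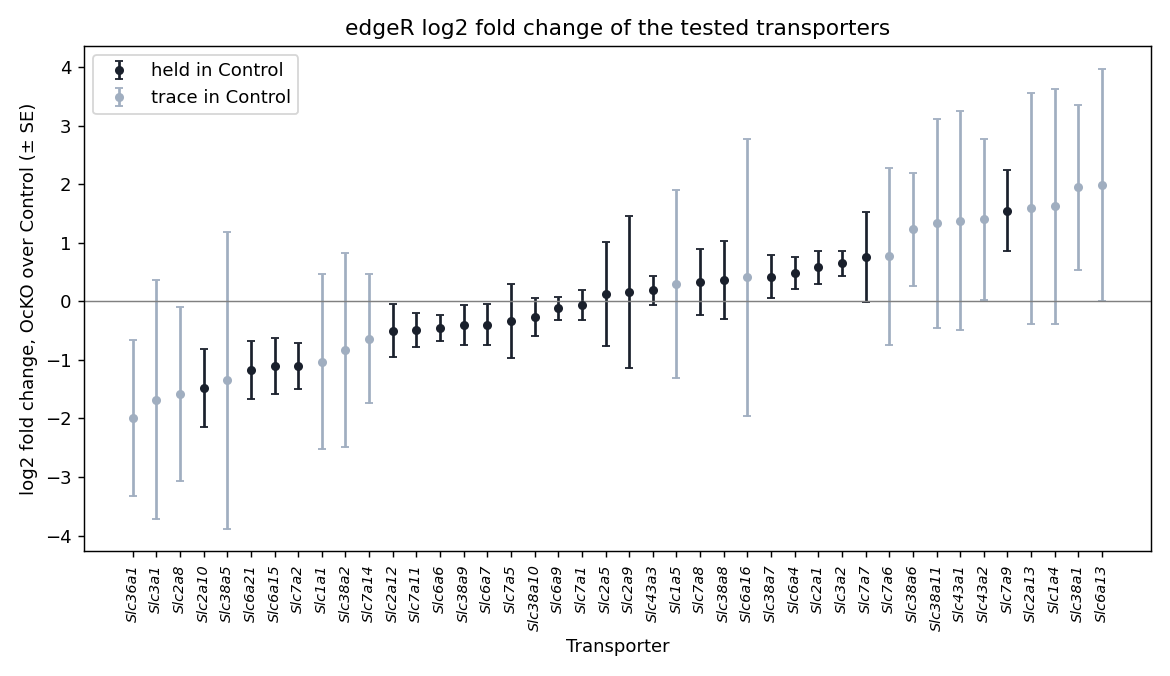
edgeR log2 fold change of the 42 tested transporters, OcKO over Control, with bars of 1 SE. Held genes are dark and traces grey. The held values run from -1.48 (Slc2a10) to 1.55 (Slc7a9), and the grey bars are mostly wider.

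Slc3a2 had the smallest p. It stood at 129, 183 and 177 CPM in Control, compared with 286, 217 and 269.6 CPM in OcKO. All 3 OcKO libraries lay above all Control libraries. The means were 163 ± 29.5 and 257 ± 36 CPM (SD, n = 3). The log2 fold change was 0.65 (SE 0.21), and the edgeR adjusted p was 0.2746. The adjusted p was 0.0681 by DESeq2 and 0.2457 by limma voom.

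Slc7a2 had the next smallest p. It stood at 318, 197 and 276 CPM in Control, against 82.2, 200.4 and 83.2 CPM in OcKO. OcKO replicates 1 and 3 lay under every Control library, and OcKO replicate 2 lay inside the Control range. The log2 fold change was -1.11 (SE 0.39, edgeR adjusted p = 0.3285). The adjusted p was 0.0559 by DESeq2 and 0.2422 by limma voom.

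Slc6a15 showed the same split among the OcKO libraries. Control stood at 98.1, 94.8 and 73.8 CPM, and OcKO at 25.4, 75.5 and 22.3 CPM. Its log2 fold change was -1.11 (SE 0.48, edgeR adjusted p = 0.4490). Without OcKO replicate 2 the log2 fold changes of Slc7a2 and Slc6a15 were -1.63 and -1.86, with edgeR adjusted p values of 0.1601 and 0.1417. They were -0.90 and -0.87 without OcKO replicate 1 (adjusted p 0.5776 and 0.7172) and -0.90 and -0.82 without OcKO replicate 3 (0.5835 and 0.6972). In Slc7a11 and Slc38a9, too, OcKO replicate 2 stood apart from the others. Slc7a11 stood at 351, 307 and 260.3 CPM in Control, compared with 180.1, 316 and 156 CPM in OcKO. Slc38a9 stood at 84.7, 71.5 and 93.9 CPM and at 55, 93.9 and 38.8 CPM.

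OcKO replicate 2 lay inside the Control range for 11 of the 24 held genes (45.8%), against 7 (29.2%) for replicate 1 and 9 (37.5%) for replicate 3. Over all tested genes these shares were 47.8%, 41.9% and 43.6%. The library was therefore somewhat closer to Control in the whole table as well. Rpa1 was as low there as in the other OcKO libraries.

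Slc2a1, the leading glucose carrier, stood at 42.1, 46.3 and 28.8 CPM in Control, against 46.8, 60.2 and 68.2 CPM in OcKO. The OcKO libraries lay above Control, the lowest by little (log2 fold change 0.58, SE 0.28, edgeR adjusted p = 0.5085). Slc2a10 pointed the other way, at 28.2, 5.92 and 18.7 CPM in Control, compared with 3.21, 8.17 and 7.52 CPM in OcKO. Its groups overlapped, with a log2 fold change of -1.48 (SE 0.67) and an edgeR adjusted p of 0.4812. Slc2a12 stood at 41.6, 47.7 and 38.7 CPM and at 33.1, 44.7 and 12.6 CPM, where the lowest value was OcKO replicate 3.

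Slc7a9, the light chain that pairs with Slc3a1 in kidney and gut to take up cystine and basic amino acids, stood at 5.64, 1.95 and 11.4 CPM in Control. Its OcKO libraries stood at 27.6, 13.9 and 14.4 CPM, above all Control libraries. The log2 fold change was 1.55 (SE 0.69, edgeR adjusted p = 0.4656), and it ran from 1.15 without Control replicate 2 (0.5427) or OcKO replicate 1 (0.7794) to 2.32 without Control replicate 3 (0.2552). Its known partner Slc3a1 was a trace in both groups.

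Slc6a6, the taurine carrier, stood at 72.4, 87.3 and 68.4 CPM in Control, against 63.5, 49 and 54.7 CPM in OcKO, with no overlap (log2 fold change -0.45, SE 0.22, edgeR adjusted p = 0.5145). Slc6a21 stood at 19.4, 17.9 and 10.5 CPM and at 7.82, 4.15 and 9.29 CPM, also with no overlap (log2 fold change -1.17, SE 0.50, edgeR adjusted p = 0.4478). For Slc6a9 the means were 356 ± 24.9 and 328 ± 67.4 CPM (SD, n = 3; log2 fold change -0.12, SE 0.20). That sign turned with library size alone (0.05) and without OcKO replicate 2 (0.08). The means of Slc43a3 were 73.7 ± 15 and 84.3 ± 16.4 CPM, those of Slc38a7 39.6 ± 13.7 and 52.8 ± 19.4 CPM, and those of Slc6a7 128 ± 51.5 and 96.7 ± 33 CPM. Each of these differences was smaller than the larger SD of its groups.

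The heavy chain and its light chains were set side by side, since Slc3a2 carries the products of Slc7a5, Slc7a6, Slc7a7, Slc7a8, Slc7a10 and Slc7a11. The 6 light chains summed to 104, 71.3 and 96.8 TPM in Control and 66.7, 109 and 78.9 TPM in OcKO, and the groups overlapped. Per unit of Slc3a2 TPM this was 0.965, 0.521 and 0.677 in Control and 0.265, 0.585 and 0.327 in OcKO. OcKO replicate 2 again fell within the Control range. Slc7a11 made up 69.2 ± 13.3% of the light chain TPM in Control and 56.2 ± 9.89% in OcKO (SD, n = 3). Its level per length rests on a deposited exon length of 13922 bases. Slc7a5 (LAT1), which imports large neutral amino acids such as leucine, stood at 21.1, 7.71 and 14.2 CPM in Control, compared with 6.54, 6.76 and 21 CPM in OcKO. Slc7a6 was at 0.0532, 0.0607 and 3.19 TPM in Control and 2.49, 1.91 and 1.75 TPM in OcKO. Slc7a7 overlaps Oxa1l on the opposite strand over 232 bases, and Oxa1l was at 27.313 to 51.13 CPM.

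**Figure D4:**
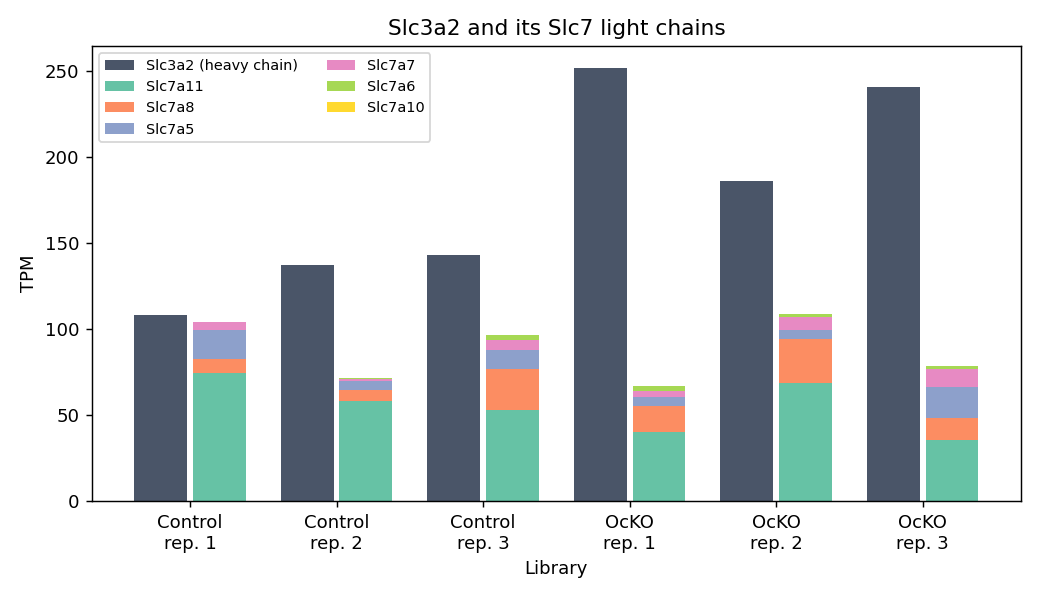
TPM of the heavy chain gene Slc3a2 (dark bars) beside the stacked TPM of its 6 light chain genes in each library. The stack nearly equals Slc3a2 in Control replicate 1 (104 against 108 TPM) and is far below it in OcKO replicates 1 and 3.

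The promoters of Slc3a2 and Slc7a11 are printed because their products form 1 exchanger. Slc3a2 lay above Control in all 3 OcKO libraries, and Slc7a11 lay under it in replicates 1 and 3. Both are RefSeq windows of GRCm38.p6 from 250 bases before to 50 after the start. In capitals is each match, on either strand, to TGATGNAA, the composite element bound by C/EBP and ATF proteins such as ATF4 in the response to amino acid shortage. Slc7a11 spans chr3:50443564-50443863 (minus strand) and Slc3a2 chr19:8713848-8714147 (minus strand), the latter inside the deposited Slc3a2 gene.
Slc7a11: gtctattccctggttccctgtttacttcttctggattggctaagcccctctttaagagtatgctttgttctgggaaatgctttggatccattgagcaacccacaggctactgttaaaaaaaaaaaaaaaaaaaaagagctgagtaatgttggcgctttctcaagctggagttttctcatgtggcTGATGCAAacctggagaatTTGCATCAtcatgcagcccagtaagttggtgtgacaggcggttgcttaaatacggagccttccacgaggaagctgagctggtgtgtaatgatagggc
Slc3a2: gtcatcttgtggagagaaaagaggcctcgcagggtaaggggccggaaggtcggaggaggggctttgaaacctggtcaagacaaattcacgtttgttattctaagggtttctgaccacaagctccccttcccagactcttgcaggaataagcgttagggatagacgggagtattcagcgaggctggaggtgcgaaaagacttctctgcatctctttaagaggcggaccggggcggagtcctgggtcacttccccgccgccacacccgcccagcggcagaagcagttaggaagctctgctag
The Slc7a11 window holds 2 matches facing each other, and that of Slc3a2 holds 0. The start of the deposited Slc3a2 gene, at 8723369 on the minus strand, lies outside this window and was not searched. A promoter window was found for 53 of the 73 members, 74 windows in all. The element was in 5 of these 74 windows (6.76%), those of Slc1a4, Slc6a21, Slc7a7 and Slc7a11, against 3.97% of all 32851 windows. Slc7a7 supplied more than 1 of the 5, and these overlap each other, so the shares count windows and not genes. A match in these letters is a description and not a bound site.

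CpG content overlapped widely between held genes, traces and silent genes. The highest CpG count among a gene's windows had a median of 13.5 over the 18 held genes with a window, 15.5 over 28 traces and 7.0 over 7 silent genes. Over all genes of the promoter table it was 8.0. The ranges were 2 to 28, 1 to 42 and 1 to 32 in that order.

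Genes without Control counts made up 14 of the traces and none was tested. The share of all genes with counts in OcKO alone was not computed, so the 14 are not read as a gain. Slc6a5 (GLYT2), the glycine carrier of inhibitory neurons, stood at 0, 2.09 and 3.11 TPM in OcKO, and Slc6a12, a betaine and GABA carrier, at 0, 1.7 and 3.92 TPM. Slc6a8, the creatine carrier, stood at 3.26, 0.0383 and 0.0447 TPM and Slc7a4 at 3.37, 0.636 and 0.0585 TPM. All 3 OcKO libraries had counts for Slc6a8, Slc7a4 and Slc6a14. Others had at most 32 counts in any library, in 1 or 2 of them, among them Slc1a2, Slc2a4, Slc6a11, Slc6a18, Slc7a3, Slc7a15 and Slc38a4. The OcKO libraries also had counts for more genes than the Control libraries, as given above, and the part of that in these values was not tested.

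Around the transporters, 7 lists of partner genes held 123 tested genes, of which edgeR called 1 higher (0.137% of all genes were called higher) and 0 lower. With no adjustment, 9 had higher (5.93% of all genes) and 7 had lower values (5.21% of all genes) at p under 0.05. The called gene was Slc23a3, of the family that carries ascorbate and nucleobases, itself with no settled substrate. It rose from 18.8, 15.2 and 18.8 CPM to 137, 80.9 and 108 CPM. The log2 fold change was 2.62 (SE 0.27), with an edgeR adjusted p of 0.0297. Without any 1 library its adjusted p was 0.0618 to 0.1939, with log2 fold changes of 2.41 to 2.83, and limma voom gave 0.1628. In the same list of 27 other nutrient carriers, 11 values were positive and 16 negative, with a median of -0.14. Outside the naming rule, Slc6a20b stood at 71.5 ± 16.9 CPM in Control, against 35.6 ± 7.24 CPM in OcKO (SD, n = 3). All its OcKO libraries lay under Control (log2 fold change -1.01, SE 0.28, edgeR adjusted p = 0.2110). In this list DESeq2 called 2 genes higher, Slc23a3 and Slc27a4, and 1 lower, Slc6a20b. Over all genes DESeq2 called 4.66%, in either direction.

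Of the 18 tested genes of the amino acid deprivation response, edgeR and limma voom called 0. DESeq2 called 2 of the 18 higher, Psph and Shmt2, against 4.66% of all genes called in either direction. By edgeR with no adjustment 5 reached p under 0.05, each with higher values in OcKO (5.93% of all genes), and the median log2 fold change was 0.61. The list was chosen with earlier results of these data known, so its count and median are a description only. Psph, the last enzyme of serine synthesis, led the list by p. Its Control libraries held 2.56, 1.74 and 0.834 CPM and its OcKO libraries 17.6, 7.77 and 13 CPM, a log2 fold change of 2.90 (SE 0.69) with an edgeR adjusted p of 0.1497 and a DESeq2 adjusted p of 8.07e-04. The rest of the 5 were Atf3, Ddit3, Shmt2 and Phgdh, with log2 fold changes of 4.04, 0.94, 0.80 and 0.72. Their OcKO libraries all lay above Control, with edgeR adjusted p values of 0.1871, 0.2937, 0.2441 and 0.2977. Of the 18 log2 fold changes, 12 were positive and 6 negative. Chac1, a glutathione-degrading enzyme of the same list named after its values were seen, had all OcKO libraries under Control. Its log2 fold change was -1.73 (SE 1.04, edgeR adjusted p = 0.6309). Atf4 itself, whose mRNA is mainly controlled in translation, had a log2 fold change of -0.02. Slc7a11, whose promoter window holds 2 letter matches to TGATGNAA, was at -0.49 (SE 0.29). Whether these values are tied to the response was not tested.

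Amino acid sensing genes upstream of mTORC1 numbered 29 tested, with a median of -0.04. edgeR called 0 of them. Before adjustment 1 was higher (5.93% of all genes) and 1 lower (5.21% of all genes) at p under 0.05. The smallest p belonged to Sesn2, a leucine sensor, whose Control mean was 6.98 ± 5.49 CPM and OcKO mean 129 ± 70.8 CPM (SD, n = 3). Its edgeR adjusted p was 0.1196 with a log2 fold change of 4.21. DESeq2 called it alone among the 29 (adjusted p = 1.03e-09), against 4.66% of all genes. With a filter of 5 CPM in 3 libraries edgeR also called Sesn2 (adjusted p = 0.0176), and limma voom did not (adjusted p = 0.1849). Glucose transporter traffic and control numbered 19, with a median of -0.24. Its smallest p was that of Rab10, a GTPase of GLUT4 vesicles, at 131 ± 22.1 and 76.1 ± 11.4 CPM (adjusted p = 0.2031). Cell volume control numbered 19, with a median of -0.21, led by Slc12a7, a potassium and chloride cotransporter, at 200 ± 21.7 and 112 ± 37.3 CPM (edgeR adjusted p = 0.2688). Transporter ubiquitination and kinases numbered 7, with a median of -0.09, led by Nedd4l, a ubiquitin ligase that takes carriers off the membrane. Nedd4l stood at 207, 194 and 126 CPM in Control, compared with 46.1, 158 and 63.9 CPM in OcKO, where replicate 2 again lay in the Control range. Of the 4 gap junction genes, Gja4, the connexin that oocytes contribute, stood at 739 ± 52 and 659.8 ± 107 CPM. edgeR called 0 genes in each of these 4 lists. Before adjustment it gave p under 0.05 to 1 higher and 1 lower gene of glucose transporter traffic and 2 lower genes of volume control. The other 2 lists had 0. Over all genes 5.93% were higher and 5.21% lower at that level. DESeq2 called Rab10 alone in these 4 lists (lower, adjusted p = 0.0388), against 4.66% of all genes.

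**Figure D5:**
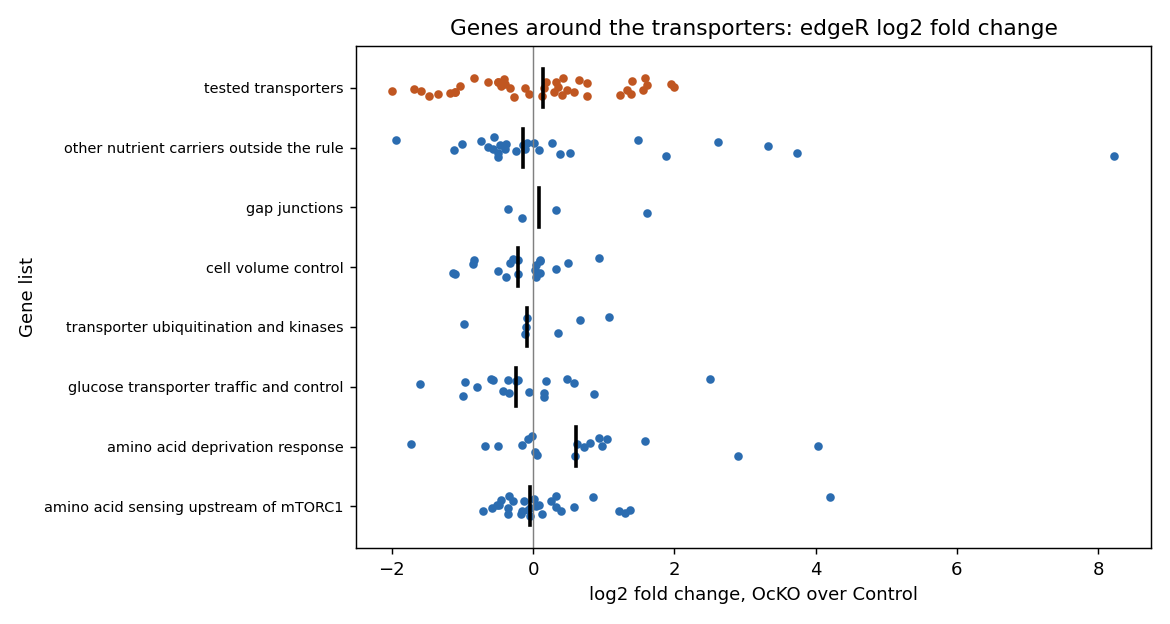
edgeR log2 fold changes of the genes in 7 partner lists (blue) and of the 42 tested transporters (orange), with black bars for the medians. The deprivation response has its median at 0.61, and the other medians lie between -0.24 and 0.14. The lists were chosen with earlier results of these data known.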

How the data were processed

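The authors deposited raw counts of reads per gene, as 1 table of the series and 1 file per sample, which differed in 0 values. Per the submitters' processing notes, Trimmomatic 0.36, STAR 2.5.2b, featureCounts and Subread 1.5.2 were used with GRCm38. Not given in the sources used here: annotation release, strand setting and handling of reads with several matches. The library kit does not mark strand. Exon lengths are those of the deposited files, and 174 genes had no name.

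TPM was computed from these counts and lengths. Counts were tested with edgeR 4.0.16 in R 4.3.3 (glmQLFit, glmQLFTest, TMM, filterByExpr, 16060 genes), with Benjamini-Hochberg adjustment over all tested genes and calls under 0.05. The SE of a log2 fold change is its size divided by the root of edgeR's F. Alternatives were DESeq2 1.42.0, limma 3.58.1 voom, other scalings and filters, a replicate block and leaving out each library. The fits were tested on simulated data. No libraries were duplicates (chi-square per degree of freedom of at least 123.8).

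Members and lists were chosen with earlier results of these data known. Named are the 12 members with the highest Control TPM, the 8 with the smallest p, a fixed set by known role, and in each partner list up to 3 called genes or else the 1 with the smallest p. Other members are named after their values were seen. Values of 1 member are not reported here.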

Additional observations from a re-analysis of the deposited data

How the results depend on the processing

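The count of 0 called transporters held under all 13 alternatives. Apart from DESeq2 (749), these called only 0 to 68 genes over the whole table. So few calls nearly fix the count of members at 0, and only DESeq2 could readily have moved it. Control oocytes held 24 to 26 transporters without 1 Control library. They held 26 at 0.5 TPM, 19 at 5 TPM and 26 at 1 CPM without length. The count of called genes over all genes tested, 23, was 749 with DESeq2, 1 with limma voom, 68 at 5 CPM in 3 libraries and 0 with a replicate block, and 0 to 5 without 1 library. Transporters at an unadjusted p under 0.05, 3 by edgeR, numbered 6 with DESeq2, 7 with limma voom, 12 of 62 with no low-count filter (19.4%, against 10.3% of all genes) and 5 with the replicate block (11.9% against 8.57%). Without 1 library they numbered 3 to 10, from 6.52% against 10.1% without OcKO replicate 1 to 21.7% against 13.8% without Control replicate 3. Called partner genes, 1 of 123 by edgeR, numbered 7 with DESeq2, which called 4.66% of all genes. They numbered 0 with limma voom, 2 at 5 CPM in 3 libraries, 0 with the replicate block and 0 without any 1 library. Deviations of same-numbered Control and OcKO libraries from their group means had r of -0.04 in each of the 3 pairs, across genes. Other pairs of a Control and an OcKO library had r of 0.01 to 0.03. Within a group of 3 these deviations are tied to each other, so the check cannot tell whether the numbers pair the mice. The cause of the moves in these counts was not tested. Of 292 fits of the 23 tested named members, 283 kept direction and call. No member was called in any fit, so in practice only direction differed. Among the 283 is the DESeq2 fit of Slc7a6, which gave no p, so that only its direction could be compared. The sign turned for Slc6a9 (0.05 with library size alone, 0.08 without OcKO replicate 2), Slc6a7 (0.00 without Control replicate 2) and Slc1a5 (-0.17 and -0.22 without Control replicates 2 and 3, -0.85 without OcKO replicate 3). It also turned for Slc2a8 (0.08 with limma voom), Slc7a5 (0.05 without Control replicate 1), Slc38a2 (0.87 without Control replicate 1) and the partner gene Gja4 (0.01 with library size alone). Without 1 library, log2 fold changes ran from -0.23 to 0.08 for Slc6a9, -0.72 to 0.00 for Slc6a7, -0.85 to 3.58 for Slc1a5, -1.11 to 0.05 for Slc7a5 and -3.42 to 0.87 for Slc38a2. Rpa1 kept its direction, but its adjusted p was 0.1589 with the replicate block and 0.0526, 0.0588 and 0.0959 without Control replicate 2, Control replicate 3 and OcKO replicate 3.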
